A study of Mus musculus with 8 samples.

Results

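The genes described here are 9 genes of hepatic insulin signalling: Insr, Irs1, Irs2, Pik3r1, Pdpk1, Akt1, Akt2, Foxo1 and Foxo3. They were chosen by name, from the insulin receptor down to the FoxO transcription factors, and all 9 were found among the 25010 genes of the expression table. RNA-Seq was performed on the left lobe of the liver of 2 wild-type (WT) mice and 2 mice lacking both liver X receptors (LXRDKO), with 1 library per animal. In LXRDKO mice the genes of LXRα (Nr1h3) and LXRβ (Nr1h2) are deleted in the whole body, so cells other than hepatocytes lack the receptors as well. Both groups had a C57BL/6 background, were 8 wk of age and were killed after a fast of 4 to 6 h, so no fed or insulin-treated state was available for comparison.

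Insulin binds the insulin receptor on hepatocytes, and the activated receptor phosphorylates the docking proteins IRS1 and IRS2. These recruit phosphatidylinositol 3-kinase (PI3K), whose lipid product brings the kinase PDK1 and its substrate AKT to the membrane. AKT in turn phosphorylates FoxO proteins, which leave the nucleus and no longer activate fasting genes such as those of gluconeogenesis. Much of this control acts on proteins and their phosphorylation, which RNA-Seq does not measure.

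Reads counted on genes ranged from 55772659 to 72842744 per liver. Expression is given as normalized counts, the reads on a gene after division by the library's size factor. Genotypes were compared with limma on log2(normalized count + 1) over 15578 genes whose mean reached 10 normalized counts, a filter that all 9 genes passed. Fold changes are LXRDKO relative to WT on that scale, and adjusted P values are Benjamini-Hochberg values over all genes tested, with a threshold of 0.05. With only 2 livers per genotype the smallest two-sided P value of an exact permutation test is 0.33, so the limma P values rest on the spread pooled across genes. Both receptor genes were lower in LXRDKO livers, by 68.1% for Nr1h3 and 68.4% for Nr1h2, in the direction of the labels. Reads on both genes remained, and where in the genes they lie was not tested. Nr1h3 had 5785 and 5322 normalized counts in WT livers and 1712 and 1826 in LXRDKO livers, and Nr1h2 had 2987 and 3110 in WT and 925 and 1003 in LXRDKO, each with an adjusted P value of 0.0147 (limma).

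None of the 9 genes passed the threshold. The count was 0 of 9 in limma, which called 0.321% of all genes tested, 0 of 9 in DESeq2, which called 3.59%, and 0 of 9 in edgeR, which called 0.314%. At an unadjusted P value under 0.05, limma, DESeq2 and edgeR each found 3 of the 9 genes, where limma placed 13.3% of all genes tested under that limit. These were Akt2 and Insr, which were lower in LXRDKO livers, and Irs2, which was higher. The groups were apart, with LXRDKO lower, for 5 genes (Insr, Irs1, Pik3r1, Pdpk1 and Akt2), as for 23.0% of all genes tested. They were apart with LXRDKO higher for Irs2 alone, as for 21.7% of all genes tested. The groups overlapped for Akt1, Foxo1 and Foxo3. The median log2 fold change of the 9 genes was −0.19, against −0.0046 over all genes tested. The median of the absolute log2 fold changes was 0.20 for the 9 genes and 0.17 over all genes tested, and 31.1% of genes tested had an absolute fold change at least as large as the largest of the 9. In whole liver, fewer cells of a type and less RNA per cell cannot be told apart.

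**Figure D1:**
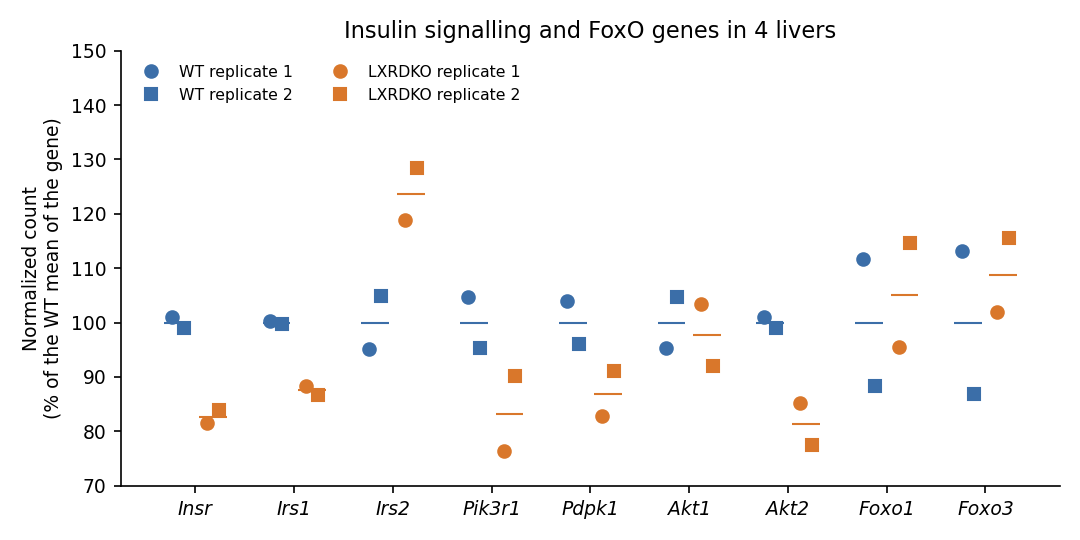
Normalized count of each of the 9 genes in each liver, as a percentage of that gene's WT mean, with WT in blue, LXRDKO in orange, circles for replicate 1, squares for replicate 2 and horizontal lines for group means. The axis starts at 70%. The orange points lie below the blue ones for Insr, Irs1, Pik3r1, Pdpk1 and Akt2, above them for Irs2, and among them for Akt1, Foxo1 and Foxo3.

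At the top of the pathway, the insulin receptor gene Insr (ENSMUSG00000005534, chr8:3122061-3279617 of GRCm38, minus strand) had 14866 and 14564 normalized counts in WT livers and 11993 and 12346 in LXRDKO livers. The livers of one genotype lay close together and the groups did not overlap. The log2 fold change was −0.27 (SE 0.088, 95% interval −0.49 to −0.056), which is 17.3% lower in LXRDKO livers. The adjusted P value was 0.294 in limma, 0.310 in DESeq2 and 0.338 in edgeR. Livers of one genotype differed by 0.030 (WT) and 0.042 (LXRDKO) on the log2 scale, where the median gene tested differed by 0.18 and 0.17.

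The docking protein genes had fold changes of opposite sign, neither past the threshold. Irs1 (ENSMUSG00000055980, chr1:82233101-82291416, minus strand) had 1474 and 1468 normalized counts in WT livers and 1299 and 1275 in LXRDKO livers. Both LXRDKO livers were lower, with a log2 fold change of −0.19 (SE 0.095, 95% interval −0.43 to 0.043) and an adjusted P value of 0.461 (limma). The WT livers differed by 0.0060 on the log2 scale, which is less than the 0.053 that counting error alone gives at these depths, so their close match carries little weight. Irs2 (ENSMUSG00000038894, chr8:10984681-11008458, minus strand) had 1790 and 1974 normalized counts in WT livers and 2236 and 2418 in LXRDKO livers. Of the 9 genes it alone had its LXRDKO livers above its WT livers. Its log2 fold change was 0.31 (SE 0.10, 95% interval 0.051 to 0.56), which is 23.7% higher, and the adjusted P value was 0.306 in limma, 0.404 in DESeq2 and 0.292 in edgeR.

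Because Irs1 and Irs2 encode related docking proteins, their levels were also compared with each other in the same liver, as normalized counts per kilobase of exon. The ratio of Irs2 to Irs1 was 1.76 and 1.95 in WT livers and 2.49 and 2.74 in LXRDKO livers. Irs2 had the higher level in all 4 livers, and the LXRDKO ratios lay above the WT ratios. On the log2 scale the ratio differed by 0.50 between genotypes, where the pooled SD between livers of one genotype was 0.10. Without each liver in turn the difference was between 0.43 and 0.57. The sum of both genes was 444 and 473 normalized counts per kilobase in WT livers and 496 and 522 in LXRDKO livers, and the share of Irs2 in that sum was 63.7% and 66.0% in WT and 71.3% and 73.3% in LXRDKO. Both sums in LXRDKO livers lay above both in WT livers. The ratios and sums are given as a description, and no test was run on them.

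The promoter sequences of Irs1 and Irs2 are shown because the fold changes of the pair differed in sign and because Irs2 is a known FoxO target. They are the 250 bases before the RefSeq start site, taken from the RefSeq table for GRCm38.p6 and read 5′ to 3′ on the minus strand. Capitals mark CACGTG, an E-box, and TGTTTTG, the complement of CAAAACA, the core of insulin response elements that FoxO proteins can bind. The Irs1 sequence covers chr1:82291440-82291689 and the Irs2 sequence chr8:11008930-11009179.
Irs1: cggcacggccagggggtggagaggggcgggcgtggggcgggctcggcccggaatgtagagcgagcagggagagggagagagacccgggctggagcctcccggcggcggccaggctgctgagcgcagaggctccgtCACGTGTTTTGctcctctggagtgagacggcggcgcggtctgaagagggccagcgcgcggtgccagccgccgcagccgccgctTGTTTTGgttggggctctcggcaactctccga
Irs2: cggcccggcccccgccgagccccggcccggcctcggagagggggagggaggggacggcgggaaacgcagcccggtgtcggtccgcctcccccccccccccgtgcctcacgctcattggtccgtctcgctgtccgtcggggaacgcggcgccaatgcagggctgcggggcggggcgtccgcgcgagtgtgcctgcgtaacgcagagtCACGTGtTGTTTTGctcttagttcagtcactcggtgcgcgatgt
In Irs1 the E-box began 115 bases before the start site and overlapped the first TGTTTTG, which began 111 bases before it, and another TGTTTTG began 32 bases before it. In Irs2 the E-box began 44 bases before the start site and TGTTTTG began 37 bases before it. Both promoters thus held the same pair of sequences side by side. Both start sites, at 82291439 for Irs1 and 11008929 for Irs2, lie outside the GENCODE genes given above. That of Irs2 lies within the span of the opposite-strand gene 9530052E02Rik (chr8:11007850-11054541). Of the 32851 promoter windows of 300 bases in the RefSeq table, 134 (0.408%) held both sequences on either strand, and 19 (0.0578%) held them with starts within 20 bases of each other. The E-box was added to the search after the sequences had been seen, so these shares describe the windows and test nothing.

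Windows of 300 bases, from 250 before the start site on, were in the RefSeq table for 8 of the 9 genes, 14 windows in all. Of the 14 windows, only 1 of Irs1 and 1 of Irs2 held CAAAACA, in either orientation, against 6.28% of all promoter windows. GTAAACA, a forkhead site, was found once, in an Akt1 window at 161 bases before the start site, against 3.65% of all windows. The canonical LXR site, AGGTCA repeated after 4 bases (DR4), was in none of the 14 windows and in 5 of all windows. CCAAT, the core that NF-Y binds, was in 1 window each of Irs2, Pik3r1, Pdpk1, Akt2 and Foxo1, among the 14, and in 37.4% of all windows. Motifs were searched as exact letters on both strands, and a match is not evidence of binding.

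PI3K and PDK1 carry the signal from the docking proteins to AKT. Pik3r1 (ENSMUSG00000041417, chr13:101680563-101768217, minus strand), which encodes the p85α regulatory subunit of PI3K, had 7026 and 6402 normalized counts in WT livers and 5122 and 6060 in LXRDKO livers. Both LXRDKO livers were lower, although LXRDKO replicate 2 came near the lower WT liver. Its log2 fold change was −0.27 (SE 0.12, 95% interval −0.56 to 0.021, adjusted P = 0.404, limma). Without LXRDKO replicate 1 the log2 fold change was −0.15, and without LXRDKO replicate 2 it was −0.39. Pdpk1 (ENSMUSG00000024122, chr17:24073680-24150924, minus strand), which encodes PDK1, had 3576 and 3302 normalized counts in WT livers and 2848 and 3131 in LXRDKO livers. Its groups did not overlap, but the gap between the nearest livers was smaller than the gap within either genotype. The log2 fold change was −0.20 (SE 0.099, 95% interval −0.45 to 0.044, adjusted P = 0.458, limma).

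Akt1 and Akt2 encode kinases of the same family, of which AKT2 is the form best known for insulin action in liver. Akt1 (ENSMUSG00000001729, chr12:112653821-112674884, minus strand) had 3451.5 and 3791 normalized counts in WT livers and 3747 and 3335 in LXRDKO livers. Its groups overlapped, with a log2 fold change of −0.033 (SE 0.10, 95% interval −0.29 to 0.23, adjusted P = 0.934, limma) that became 0.021 when libraries were scaled to their totals. Akt2 (ENSMUSG00000004056, chr7:27591552-27640826, plus strand) had 3474 and 3403 normalized counts in WT livers and 2928 and 2664 in LXRDKO livers. Both LXRDKO livers were lower than both WT livers, and Akt2 had the smallest unadjusted P value of the 9 genes (rank 1095 of all genes tested). The log2 fold change was −0.30 (SE 0.094, 95% interval −0.53 to −0.067), which is 18.8% lower, and the adjusted P value was 0.287 in limma, 0.356 in DESeq2 and 0.292 in edgeR.

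Per kilobase, the ratio of Akt2 to Akt1 was 0.578 and 0.516 in WT livers and 0.449 and 0.459 in LXRDKO livers. Akt1 had the higher level per kilobase in all 4 livers, and the LXRDKO ratios lay below the WT ratios. The first of these rests on the length of all annotated exons, 4098 bases for Akt1 and 7131 for Akt2. Before division by length, Akt2 had slightly more normalized counts than Akt1 in WT replicate 1. The difference between genotypes does not depend on these lengths. The log2 difference of the ratio was −0.27, with a pooled SD between livers of 0.084. The sum of Akt1 and Akt2 was 1329 and 1402 normalized counts per kilobase in WT livers and 1325 and 1187 in LXRDKO livers, so LXRDKO replicate 1 came close to WT replicate 1.

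**Figure D2:**
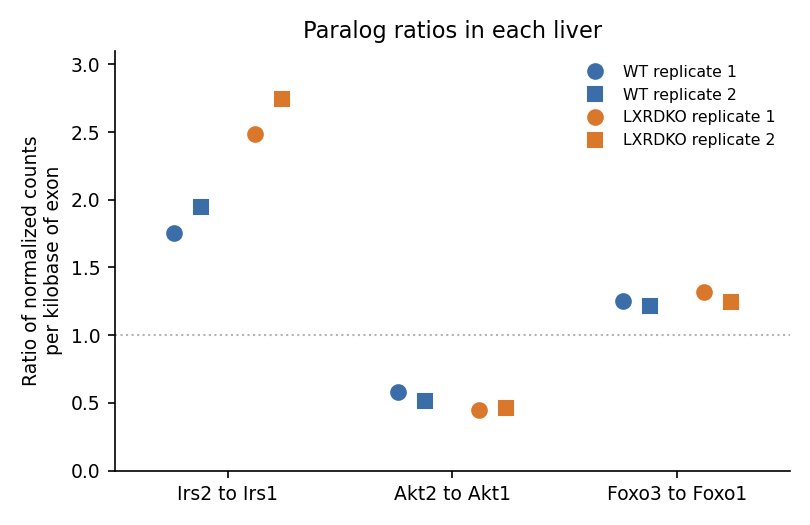
Ratio of levels per kilobase within each liver for Irs2 to Irs1, Akt2 to Akt1 and Foxo3 to Foxo1, with WT in blue and LXRDKO in orange. The Irs2 to Irs1 ratio was 1.76 and 1.95 in WT and 2.49 and 2.74 in LXRDKO livers, the Akt2 to Akt1 ratio was lower in both LXRDKO livers, and the Foxo3 to Foxo1 ratio overlapped.

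FoxO1 and FoxO3 are the transcription factors that AKT inhibits. Foxo1 (ENSMUSG00000044167, chr3:52268336-52353221, plus strand) had 4646 and 3674 normalized counts in WT livers and 3969 and 4770 in LXRDKO livers. Foxo3 (ENSMUSG00000048756, chr10:42181841-42276755, minus strand) had 5083 and 3900 in WT livers and 4583 and 5189 in LXRDKO livers. For both genes WT replicate 2 was the lowest liver and LXRDKO replicate 2 the highest, and the groups overlapped. The log2 fold change was 0.075 for Foxo1 (SE 0.15, 95% interval −0.30 to 0.45, adjusted P = 0.891, limma). For Foxo3 it was 0.13 (SE 0.15, 95% interval −0.24 to 0.50, adjusted P = 0.778, limma). The direction turned for both without WT replicate 2, to −0.094 for Foxo1 and −0.060 for Foxo3, and for Foxo1 also without LXRDKO replicate 2, to −0.058. The WT livers differed by 0.34 for Foxo1 and 0.38 for Foxo3 on the log2 scale, more than for 69.9% and 73.4% of genes tested. Their ratio varied less between livers of one genotype than either level did. Foxo3 to Foxo1 per kilobase was 1.25 and 1.22 in WT livers and 1.32 and 1.25 in LXRDKO livers. The summed level of both was 1207 and 939 normalized counts per kilobase in WT and 1063 and 1236 in LXRDKO livers.

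**Figure D3:**
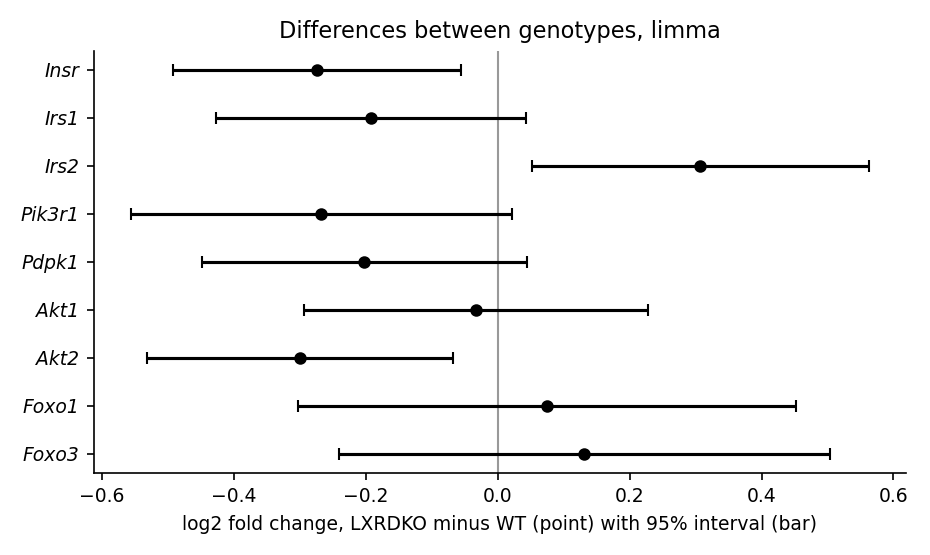
log2 fold change of the 9 genes, LXRDKO relative to WT, with limma 95% intervals as bars. The intervals of Insr, Irs2 and Akt2 lie off 0 before adjustment over all genes tested, and none of the 9 genes had an adjusted P value under the threshold, the lowest being 0.287.

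Per kilobase of exon, the 9 genes followed the order Insr, Akt1, Foxo3, Pik3r1, Foxo1, Akt2, Irs2, Pdpk1 and Irs1 by mean over the 4 livers. Insr ranged from 872 to 1081 normalized counts per kilobase and Irs1 from 139 to 161, which placed Insr at percentile 86.6 and Irs1 at percentile 51.3 of all genes tested. Neighbours in this order had overlapping ranges across livers, except Akt1 (814 to 925) over Foxo3 (515 to 685) and Pdpk1 (260 to 327) over Irs1. Insr lay below Akt1 in 1 of the 4 livers. Exon length counted all annotated exons of a gene, so the order between genes depends on the annotation.

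**Figure D4:**
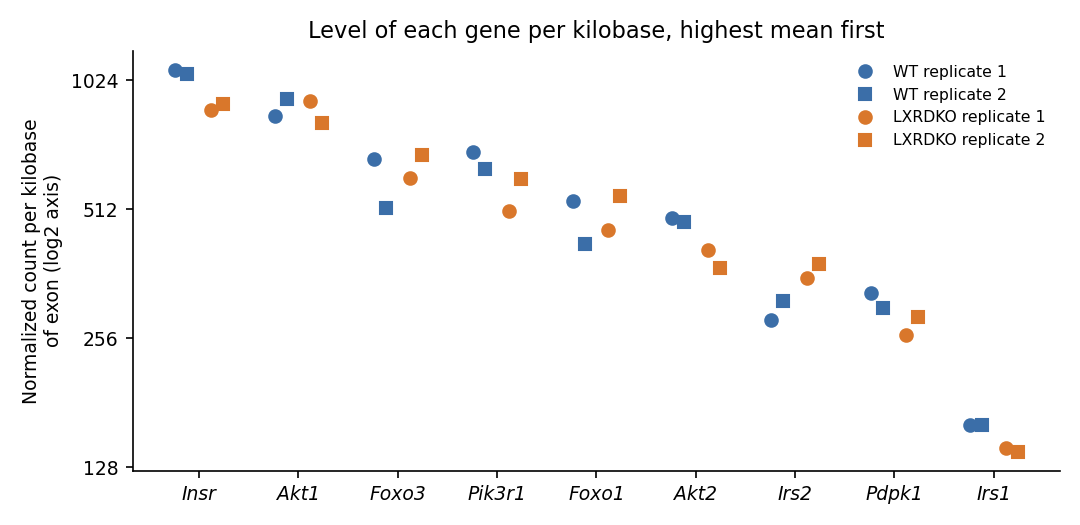
Levels of the 9 genes in each liver as normalized counts per kilobase of exon on a log axis, ordered by mean. Insr (872 to 1081) and Akt1 (814 to 925) were highest and Irs1 (139 to 161) was lowest.

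Genes whose reads could be confused with those of the 9 had few. An opposite-strand gene shared exon sequence with Irs1 (Gm9747, 9.65 to 19.9 normalized counts), Irs2 (9530052E02Rik, 2.85 to 9.12) and Foxo1 (Gm20402, 14.4 to 25.1). The library kit keeps the strand, but whether the counting used it is not given in the sources used here. The Akt2 pseudogene Akt2-ps had 6.43 to 11.4 normalized counts.

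The genes nearest to Akt2 across the 4 livers, by root mean square difference of centred log2 values, were Tmem94, Pde8a, Zbtb46, Mcm2 and Ywhaq, among 11410 genes whose mean reached 100 normalized counts. Their differences from Akt2 were 0.012 to 0.022, over 4 livers only.

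Other genes of the pathway were taken from 7 lists of 108 genes in all, of which 106 were tested. Lower in LXRDKO livers were 73 and higher 33, where 50.9% of all genes tested were lower. Their log2 fold changes had a median of −0.088. In limma 1 gene was up-regulated (Cdkn1a) and 1 was down-regulated (Srebf1), against the 0.321% of all genes tested that were called. DESeq2 called 2 up (Cdkn1a and Mdm2) and 3 down, among them Srebf1 and Mttp, against 3.59%. Insrr and Foxo6 were too low to test.

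Among 19 tested partners and inhibitors of the receptor, 12 were lower and 7 higher and none was called by limma or DESeq2. In limma 4 were under an unadjusted P value of 0.05, against 13.3% of all genes tested. The median log2 fold change was −0.097. Socs2, a feedback inhibitor of growth hormone signalling, had 711 and 1622 normalized counts in WT livers and 2592 and 2245 in LXRDKO livers (log2 fold change 1.17, adjusted P = 0.293, limma). The WT livers of Socs2 lay far apart, so its log2 fold change was 0.57 without WT replicate 1 (adjusted P = 0.156, limma) and 1.76 without WT replicate 2 (adjusted P = 0.00845, limma). Grb14, an adaptor that inhibits the insulin receptor, had a log2 fold change of −0.34 (adjusted P = 0.289), Ptprf, a receptor phosphatase, −0.37 (adjusted P = 0.361), and Gab1, a docking protein, −0.27 (adjusted P = 0.352). All 3, which were named for their small P values, had both LXRDKO livers below both WT livers. On the whole list this held for 7 of 19 tested genes, against 23.0% of all genes tested.

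Of 13 genes of PI3K and phosphoinositide phosphatases, 9 were lower and 4 higher, with a median of −0.027, and none was under an unadjusted P value of 0.05 in limma or called by DESeq2. The catalytic subunit genes Pik3ca and Pik3cb had log2 fold changes of −0.18 and −0.19. The genes with the largest positive values, Pik3r3 (0.51) and Pik3ip1 (0.47), had between 52.5 and 122 normalized counts in each liver.

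Among 17 genes of Akt kinase regulation, 14 were lower and 3 higher, with a median of −0.11, and none was called by limma or DESeq2. The 4 under an unadjusted P value of 0.05 in limma, against 13.3% of all genes tested, were all lower. Phlpp1, a phosphatase that dephosphorylates AKT, had 2363 and 2163 normalized counts in WT livers and 1808 and 1520 in LXRDKO livers (log2 fold change −0.45, adjusted P = 0.234, limma). Deptor, an inhibitor of mTOR, had 21392 and 17288 in WT and 14790 and 14021 in LXRDKO livers (−0.42, adjusted P = 0.283). Mtor, the kinase that completes AKT activation in mTORC2, had 6098 and 7595 in WT and 5044 and 5282 in LXRDKO livers (−0.40, adjusted P = 0.292). Prkce, a protein kinase C gene, had a log2 fold change of −0.31 (adjusted P = 0.319). For all 4, which were named for their small P values, the LXRDKO livers lay below the WT livers. On the whole list this held for 7 of 17 genes, against 23.0% of all genes tested.

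Of 16 Akt substrates and mTORC1 genes, 11 were lower and 5 higher, with a median of −0.14, and none was called by limma or DESeq2. In limma 3 were under an unadjusted P value of 0.05, against 13.3% of all genes tested. The translation repressor genes Eif4ebp1 and Eif4ebp2 had fold changes of opposite sign. Eif4ebp1 had 2248 and 2218 normalized counts in WT livers and 2793 and 2841 in LXRDKO livers (log2 fold change 0.34, adjusted P = 0.217, limma). Eif4ebp2 had 24928 and 23578 in WT and 20129 and 17987 in LXRDKO livers (−0.35, adjusted P = 0.276). Acly, which makes cytosolic acetyl-CoA, had a log2 fold change of −0.48 (adjusted P = 0.341, limma), and Tsc2, an inhibitor of mTORC1, had −0.23 (adjusted P = 0.393).

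Among 10 tested genes of other FoxO factors and FoxO regulators, 7 were lower and 3 higher, with a median of −0.079, and none was called by limma. In limma 1 gene was under an unadjusted P value of 0.05, against 13.3% of all genes tested. That gene was Mdm2, a ubiquitin ligase of p53 that also acts on FoxO proteins and is itself a p53 target. It had 2231 and 2529 normalized counts in WT livers and 3699 and 5090 in LXRDKO livers (log2 fold change 0.87, adjusted P = 0.136 in limma and 0.000448 in DESeq2). Foxo4 had a log2 fold change of −0.21, Sgk3, a kinase related to AKT, −0.28, and the coactivator gene Crebbp −0.17, with adjusted P values from 0.475 to 0.536 (limma).

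FoxO target genes were split in direction. Of 28 tested, 16 were lower and 12 higher, and the median was −0.024. Cdkn1a, a cell cycle inhibitor that is also a p53 target, was the only one called by limma. It had 62.7 and 95.9 normalized counts in WT livers and 2457 and 6375 in LXRDKO livers. The log2 fold change was 5.65 (adjusted P = 0.0255 in limma and 5.2e-14 in DESeq2). In limma Cdkn1a no longer passed without either LXRDKO liver. Mttp, which loads lipid onto apoB, had 31184 and 32742 in WT and 21243 and 24551 in LXRDKO livers (−0.48, adjusted P = 0.199 in limma and 0.0231 in DESeq2). Cdkn1b, another cell cycle inhibitor, and Atg14, of autophagy, had log2 fold changes of 0.24 and −0.30 (adjusted P = 0.341 and 0.346, limma). The gluconeogenic genes, named after their values were seen, were not called. Pck1 had 221969 and 208089 in WT and 275635 and 273024 in LXRDKO livers (0.35, adjusted P = 0.492, limma), and G6pc had 17336 and 21902 in WT and 15403 and 36007 in LXRDKO livers (0.27, adjusted P = 0.831, limma). Both LXRDKO livers were above both WT livers for Pck1, and the groups overlapped for G6pc.

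Of 6 genes listed as insulin-induced in liver, 5 were lower and 1 higher, with a median of −0.57. The list holds Gls2, the liver glutaminase, which is better known as induced by fasting and by p53. Without it, a choice made after seeing the data, 4 of 5 were lower. Srebf1, the master regulator of lipogenesis and itself a direct LXR target, was down-regulated. It had 22205 and 24071 normalized counts in WT livers and 3118 and 5287 in LXRDKO livers. The log2 fold change was −2.51 (adjusted P = 0.0407 in limma and 1.8e-22 in DESeq2). In limma Srebf1 did not pass without LXRDKO replicate 1. Egr1, an early response gene, was the gene with a positive value (0.58, adjusted P = 0.253, limma).

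**Figure D5:**
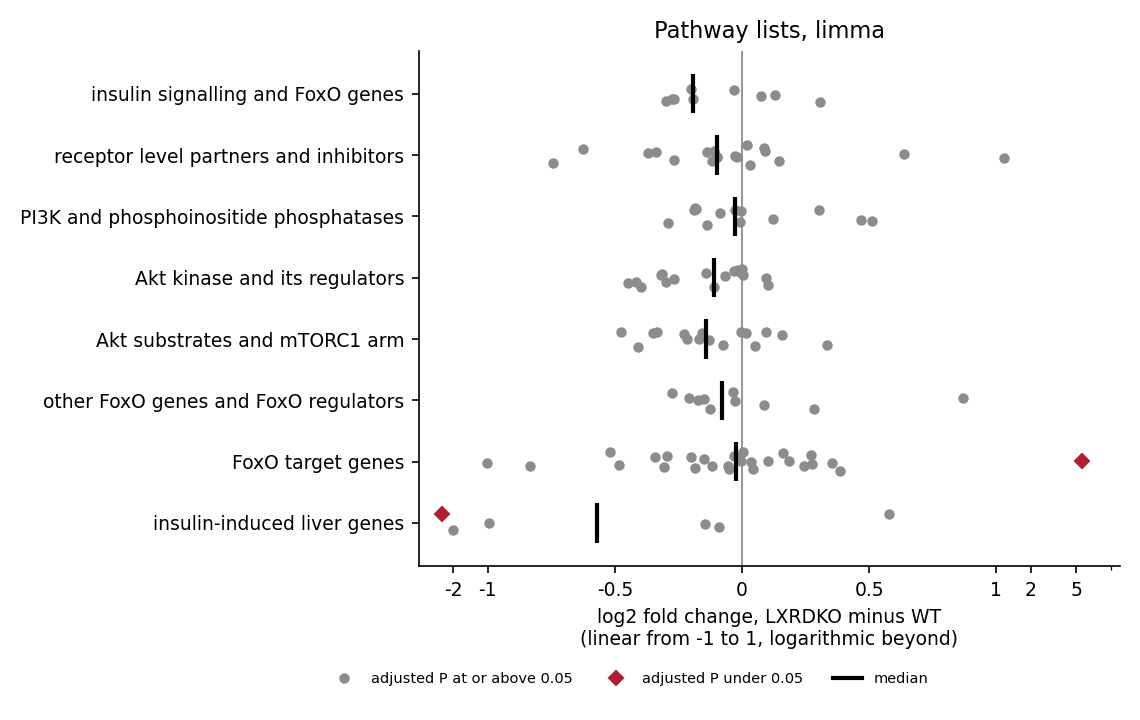
log2 fold changes of the 9 genes and of the genes on 7 pathway lists, with grey circles for genes at or above the adjusted P threshold of limma, red diamonds for genes under it and black lines for list medians. The axis is linear from −1 to 1 and logarithmic beyond. Only Srebf1 (−2.51) and Cdkn1a (5.65) carry red diamonds.

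Markers of other liver cells differed between genotypes. Summed over the list, Kupffer cell and macrophage markers had 15707 to 17910 normalized counts in WT livers and 6974 to 11739 in LXRDKO livers. Of the 11, 8 were lower and 3 were down-regulated in limma, which called 0.321% of all genes tested. The groups were apart, with LXRDKO lower, for 6 of the 11 (Clec4f, Cd5l, Timd4, Vsig4, Marco and Adgre1), against 23.0% of all genes tested. They overlapped for Csf1r, Cd68, C1qa, C1qb and C1qc, with log2 fold changes from −0.29 to 0.35. Timd4 was at 4.75 and 0 normalized counts in the LXRDKO livers. Endothelial markers summed to 10062 to 11196 in WT and 6234 to 7851 in LXRDKO livers, with 6 of 7 lower. In limma 2 were down-regulated, Cdh5 and, just under the threshold, Kdr (adjusted P = 0.0498), against 0.321% of all genes tested. The groups were apart, with LXRDKO lower, for 5 of the 7, against 23.0% of all genes tested, and overlapped for Stab2 and Lyve1. Stellate cell markers were higher for 6 of 6 (11737 to 15021 in WT and 17092 to 19930 in LXRDKO), as were cholangiocyte markers for 5 of 5 (2077 to 3582 and 4553 to 5409). None of these was called by limma, with 2 and 3 under an unadjusted P value of 0.05, against 13.3% of all genes tested. DESeq2 called 2 and 1 of them, against 3.59%. Lymphocyte markers summed to 509 to 822 in WT and 554 to 984 in LXRDKO livers. Of 6 pancreas markers only Cela1 and Amy2b were in the table. Amy2b had at most 0.949 normalized counts, and Cela1 had 1017 and 353 in WT livers and 1410 and 1002 in LXRDKO livers. The sum of the hepatocyte markers, most of it Alb, overlapped, with 6603480 to 7660172 in WT and 6292648 to 6923025 in LXRDKO livers. Of the 7 markers 4 did not overlap. Hnf4a and Cps1 had LXRDKO higher, as for 21.7% of all genes tested, and Ttr and Fgb had LXRDKO lower, as for 23.0%. Hnf4a, a transcription factor of hepatocyte identity, had a log2 fold change of 0.60 and an adjusted P value of 0.224 in limma and 0.0115 in DESeq2. The part of these cells in the values of Insr, Irs2, Akt2 and the other genes was not tested.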

How the data were processed

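Liver RNA of 2 WT and 2 LXRDKO mice was analysed. Per the labels and the methods, the authors made libraries with the KAPA Stranded kit with mRNA capture, sequenced 50-bp single-end reads and aligned them to mm10 with STAR 2.6.0c. The deposited values are a signal, counts that the authors normalized with DESeq2 size factors. The read counter and annotation release are not given in the sources used here. All values (100%) were whole multiples of 1 read, within 0.1 read, so reads were recovered. Size factors were 0.877 and 1.18 (WT) and 1.05 and 0.933 (LXRDKO). Positions and exon lengths came from GENCODE M21 (GRCm38), which held 24987 of the 25010 gene identifiers.

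Values were compared with limma 3.58.1 (trend) in R 4.3.3, with a pseudocount of 1, which understates the change of low genes. DESeq2 1.42.0 and edgeR 4.0.16 (quasi-likelihood test) were run on recovered reads. The scripts were tested on simulated data. Alternatives were pseudocounts of 0.5 and 8, other filters, scalings and moderation, a replicate block and leaving out each liver. The genes and lists were chosen with earlier results of these data known. Named from each list were up to 4 genes with the smallest unadjusted limma P value among those whose mean reached 50 normalized counts, and for Akt2 the 5 genes nearest in pattern. The pathway role of each list was assigned by hand. No chromatin accessibility samples were used here. The values of 1 gene that this rule names are not reported here.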

Additional observations from a re-analysis of the deposited data

How the results depend on the processing

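No alternative called any of the 9 genes, and over the 16 alternatives their lowest adjusted P value was 0.276. Their number under an unadjusted P value of 0.05 was 3 in limma and fell to 0 without the variance trend and to 0, 1, 2 and 1 without WT replicate 1, WT replicate 2, LXRDKO replicate 1 and LXRDKO replicate 2. With each liver left out in turn, the log2 fold change ranged from −0.12 to 0.051 for Akt1, from −0.094 to 0.24 for Foxo1, from −0.060 to 0.32 for Foxo3 and, for Gls2, which was at −0.090, from −0.24 to 0.057, so the direction of these 4 turned. Scaling to the library total also turned Akt1, to 0.021. The other 6 of the 9 genes kept their direction under all 16.

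Over all genes tested, 50 were called, 25 where the mean had to reach 50 normalized counts, 1 without the trend, 567 with DESeq2 and 2 to 262 with 1 liver left out, where the lone liver is assumed to vary like the others. Of the pathway genes 2 were called, 1 with that filter, 0 without the trend, 1 with robust moderation, 5 with DESeq2 and 0 to 4 with 1 liver left out. The replicate number as a block gave 90 calls over all genes, 0 of them among the 9 genes, and among the genes named it changed the call of Timd4 alone (adjusted P = 0.0596 in limma and 0.0355 with the block). The correlation of deviations between same-numbered livers was 0.0031, over 2 pairs. The causes of these shifts were not tested.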

Other observations

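Some FoxO target genes differed widely between livers of the same genotype. The 3 given here were picked after their values were seen. They were the genes of the 28 whose difference between livers was above the 90th percentile of genes tested in both genotypes. The share of all genes tested that met this rule was not counted, so the 3 are a description only. Txnip, a regulator of glucose uptake, had 7563 and 20599 normalized counts in WT livers and 3957 and 12425 in LXRDKO livers. Pdk4, which restrains pyruvate oxidation in fasting, had 212 and 525 in WT and 115 and 731 in LXRDKO livers, a 2.47-fold and a 6.37-fold difference within genotypes. Igfbp1, a secreted binding protein that insulin lowers, had 1874 and 4606 in WT and 1831 and 4694 in LXRDKO livers. Replicate 2 was the higher liver in both genotypes for all 3 genes. Foxo1 and Foxo3 were lower in replicate 2 than in replicate 1 in WT and higher in replicate 2 in LXRDKO. What set these livers apart was not tested.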
